A study of Mus musculus with 10 samples.

Results

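The Polycomb repressive complexes keep developmental genes silent, and 10 genes that encode their core subunits are described here across mouse tail buds in which Lin28a was switched on. The genes were taken by symbol from a list of core subunits, 5 of Polycomb repressive complex 2 (PRC2: Ezh1, Ezh2, Eed, Suz12 and Jarid2) and 5 of Polycomb repressive complex 1 (PRC1: Cbx2, Bmi1, Pcgf2, Ring1 and Rnf2). All 10 were among the 38720 gene symbols of the count table, and all 10 passed the filter on low counts that left 16340 genes to test. The rule itself uses no measured value, but the list was drawn up with earlier results of these data known.

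PRC2 writes a repressive methyl mark on the tail of histone H3. Its enzyme is either Ezh2, the form of dividing and embryonic cells, or Ezh1, a weaker form that is known from resting cells, and it works only together with Eed and Suz12. PRC1 puts ubiquitin on histone H2A through a pair of RING-finger proteins, and its chromobox (Cbx) subunit binds the mark that PRC2 leaves. In the elongating body axis these complexes are known for holding the Hox genes silent until each is needed, and mice that lack single subunits show shifted vertebral identities. Lin28a binds the precursors of let-7 microRNAs and keeps them from maturing. Mature let-7 microRNAs pair through their seed (bases 2 to 8) with sites in messenger RNAs.

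RNA was sequenced from microdissected tail buds, the posterior growth zone, of mouse embryos at embryonic day 12.5, in 10 libraries that form 3 groups. In the 4 Lin28a-induced libraries (replicates 2 to 5) the embryos carried TRE-Lin28a, RLSL-rtTA and FoxD1-Cre and were exposed to doxycycline. The 3 no-Cre libraries (replicates 6 to 8) came from embryos that carried TRE-Lin28a and RLSL-rtTA and also had doxycycline, but lacked FoxD1-Cre. For the 3 wild-type libraries (replicates 1 to 3) the labels name neither a transgene nor doxycycline. TRE is a promoter that answers to doxycycline through the rtTA protein, and the FoxD1-Cre allele decides in which cells rtTA can be made. The libraries therefore hold RNA from whole tail buds, in which the share of cells with active transgene was not measured. The labels do not say whether each library is a separate embryo or a pool, so p-values measure the spread between these libraries, which may be technical. In bulk tissue, fewer cells of a type and less RNA per cell cannot be told apart.

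The let-7 seed and its matches in the subunit genes are shown first, since Lin28a acts on this microRNA family. The mature let-7a sequence from RefSeq is given 5′ to 3′ with its seed in capitals, and 11 mature mouse microRNAs of that table share this seed. The 7-base match to the seed is CTACCTC, searched on the transcript strand of annotated 3′ UTRs (GENCODE M21, build GRCm38), and it occurred in 1995 of 20419 genes with such a UTR (9.77%). The 8-base form CTACCTCA, which contains the 7-base one, occurred in 680 (3.33%). Of the 10 subunit genes, Ezh2 and Cbx2 each held 1 match of 7 bases and no gene held the 8-base form. Each site is printed with its flanks, 30 bases in all, with the match in capitals.
let-7a: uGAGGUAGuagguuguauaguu
Ezh2 site: catctaCTACCTCttccccttctctctgaa
Cbx2 site: ggcttcctgctgattCTACCTCtctgggcc
The Ezh2 match lies at chr6:47530528-47530534 on the minus strand, 6 bases after the stop codon in a 3′ UTR of 402 bases. The Cbx2 match lies at chr11:119029288-119029294 on the plus strand, 117 bases after the stop codon in a 3′ UTR of 2100 bases. The longest annotated 3′ UTR of Bmi1, 2148 bases, held no match to these letters. Among related genes, 0 of 8 other PRC2 subunits, 2 of 19 other PRC1 subunits (Phc3 and Pcgf3), 1 of 7 erasers of the Polycomb marks (Asxl2) and 1 of 11 Trithorax subunits (Kmt2d) held a 7-base match. These matches are letters in a window and not measured sites.

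Lin28a itself, the check of the labels, stood at 605, 664, 731 and 750 CPM (read counts scaled to library size, with TMM factors) in the induced libraries. It stood at 2.64, 4.53 and 5.03 CPM in the no-Cre libraries and 4.45, 5.72 and 6.16 CPM in wild type, so the induced libraries were apart from the other 6. The no-Cre and wild-type values overlapped (the test was not passed), and Lin28a does not check which of these 2 labels a library has. The fitted difference was 167-fold over no-Cre (log2 7.38 ± 0.21 SE). Total counts ran from 29898412 to 39517946 in the induced, 29300166 to 38893332 in the no-Cre and 21762668 to 25316537 in the wild-type libraries, and each subunit gene had between 304 and 13047 counts in a library. The wild-type libraries stood apart in other ways. Mitochondrially encoded genes took 1.85% to 2.69% of their counts against 0.446% to 0.690% in the other 7 libraries. The summed level of 10 surface ectoderm markers was 991 to 1226 CPM in wild type, 340 to 392 CPM in induced and 358 to 406 CPM in no-Cre libraries, and all 10 markers were lower in both transgenic groups. The 9 endothelial markers summed to 82.4 to 157 CPM in wild type against 301 to 410 CPM and 314 to 348 CPM, and all 9 were higher in both transgenic groups. Tail bud progenitor markers (10 genes, among them T and Tbx6) were present in every library, at 992 to 1323 CPM in induced, 1037 to 1070 CPM in no-Cre and 450 to 976 CPM in wild-type libraries. None of these 3 lists had a gene at 0 in all libraries of a group. Wild-type replicate 2 differed most from its group, with a chi-square per degree of freedom of 28.8 and 29.6 against the other wild-type libraries where other pairs gave 7.64 to 15.5. By the sex-linked genes Xist and Ddx3y, induced replicate 5 (28876 and 0 counts) and no-Cre replicate 7 (29382 and 0 counts) read as female. Every other library, with all of wild type, had more Ddx3y than Xist counts and read as male.

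No-Cre embryos had doxycycline and the same TRE-Lin28a and RLSL-rtTA transgenes but not FoxD1-Cre, so Lin28a induction and the FoxD1-Cre allele itself cannot be told apart in this comparison. Set against no-Cre, the Lin28a-induced libraries differed in 1 of the 10 Polycomb genes by the test. Bmi1, the PCGF subunit best known as a repressor of the Cdkn2a locus, was 1.49-fold higher in the induced libraries. The other 9 did not pass, with fitted log2 differences from -0.12 to 0.17. In this comparison 2.91% of all tested genes passed (1.76% higher and 1.15% lower). The test was edgeR's quasi-likelihood test with Benjamini-Hochberg adjustment over all tested genes and a threshold of 0.05, and it counted 0 subunit genes as lower. At an unadjusted p under 0.05, 4 subunit genes were higher and 1 was lower, beside 16.3% of all tested genes in either direction.

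**Figure D1:**
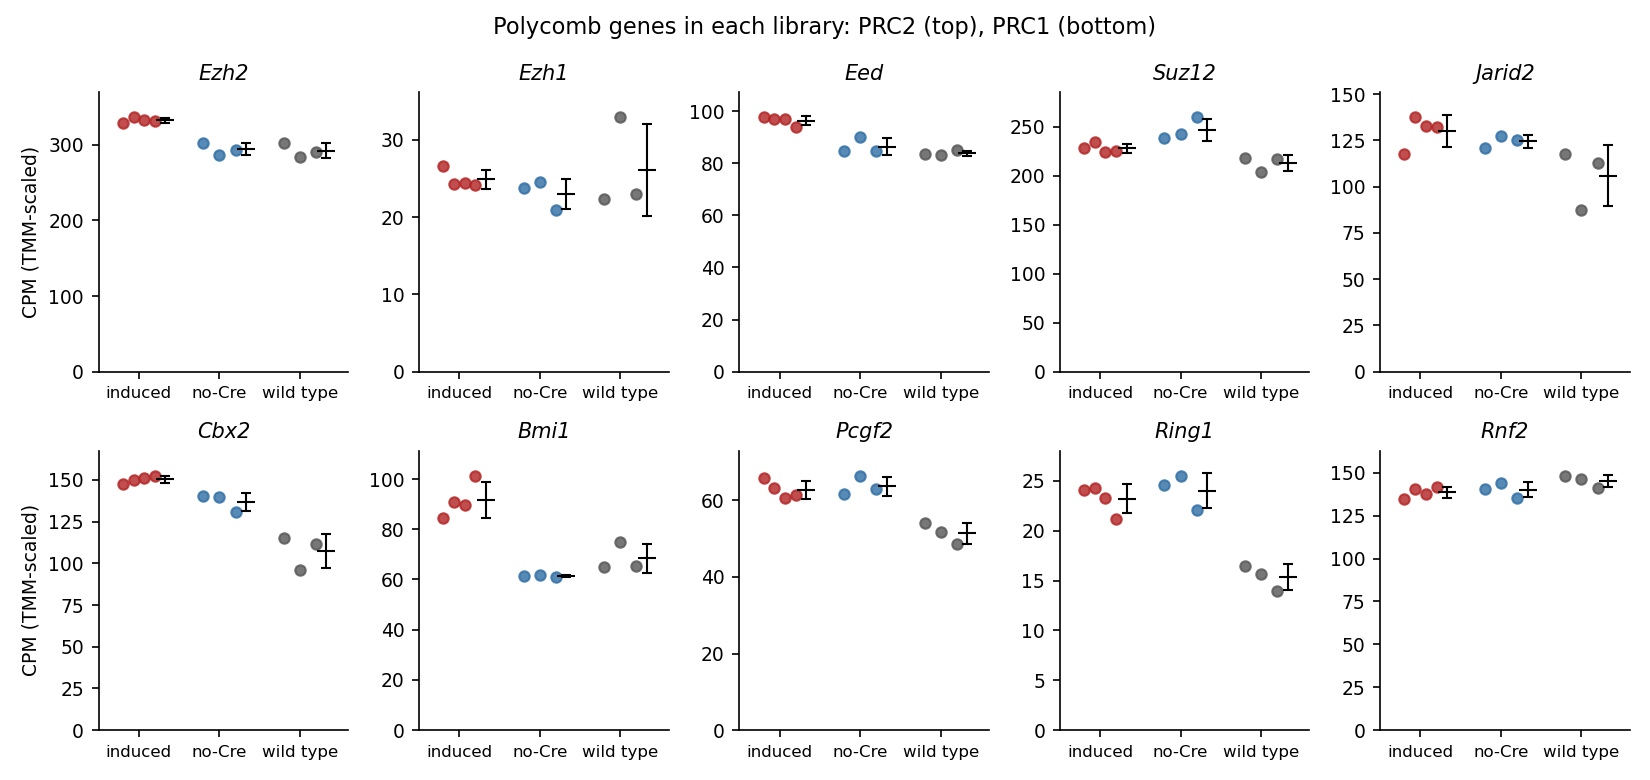
CPM (y axes, library-scaled counts, from 0) of the 10 Polycomb genes in each library of the Lin28a-induced (red), no-Cre (blue) and wild-type (grey) groups, with points for libraries and black dashes and bars for the group mean ± SD. The 4 induced libraries of Bmi1 (84.3 to 101 CPM) lie above all others, and the 3 wild-type libraries of Ring1 (14.0 to 16.5 CPM) lie below all others.

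Bmi1 was measured at 84.3, 90.8, 89.8 and 101 CPM in induced replicates 2 to 5, and at 61.2, 61.7 and 61.1 CPM in the no-Cre replicates 6 to 8. Wild-type replicates 1 to 3 gave 64.8, 75.1 and 65.6 CPM. Every induced library was above every other library, and every no-Cre library was below every wild-type library. The means were 91.6 ± 7.06 (SD, n = 4), 61.3 ± 0.299 (SD, n = 3) and 68.5 ± 5.73 CPM (SD, n = 3). The log2 difference between induced and no-Cre libraries was 0.58 ± 0.07 (SE; edgeR adjusted p = 0.000537), and the gene passed in each of the 7 fits that left out 1 library (adjusted p from 0.000691 to 0.00913). Against wild type the induced libraries were higher by 0.42 ± 0.07 on the log2 scale (adjusted p = 0.000197, 7 of 7 fits). Between no-Cre and wild type the difference was -0.16 ± 0.07 (adjusted p = 0.0908). The 3 comparisons share libraries, so their values are not independent of each other.

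In GRCm38, Bmi1 spans 18677018 to 18686629 of chromosome 2, plus strand. Reads can be shared with a near copy, since 27.3% of the 32-base words in its transcripts also occur in other annotated genes, 26.7% in Gm5946 alone. Gm5946 had 0 to 5 counts per library, against 1428 to 3984 counts for Bmi1. Commd3, the neighbour on the same strand that ends 786 bases upstream, stood at 38.4 ± 0.896 (SD, n = 4), 40.4 ± 1.44 (SD, n = 3) and 54.1 ± 3.31 CPM (SD, n = 3) in induced, no-Cre and wild-type libraries. Its difference between induced and no-Cre was -0.07 ± 0.06 (adjusted p = 0.592).

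Within PRC2, the enzyme Ezh2 and its partner Eed lay higher in the induced libraries without passing the test against no-Cre. Ezh2 gave 328, 336, 333 and 332 CPM in induced replicates 2 to 5. In no-Cre replicates 6 to 8 it gave 302, 287 and 294 CPM, and in wild-type replicates 1 to 3 it gave 303, 284 and 290 CPM. The induced libraries did not overlap with either other group, while no-Cre and wild type overlapped. The log2 difference from no-Cre was 0.17 ± 0.05 (adjusted p = 0.0572) and from wild type 0.19 ± 0.05 (adjusted p = 0.00417). No-Cre against wild type differed by 0.01 ± 0.05 (adjusted p = 0.881). Whether Ezh2 is called against no-Cre turned on the setting: fitting only the 2 groups compared gave adjusted p = 0.00782, DESeq2 gave 0.00237, limma-voom 0.0437, a filter of 1 CPM in 3 libraries 0.0461 and GC and length offsets 0.0467. The other 4 settings and all 7 fits without 1 library left it above the threshold.

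Eed binds the methyl mark and stimulates the enzyme. Its levels were 97.5, 96.9, 96.8 and 93.8 CPM in induced replicates 2 to 5, 84.5, 90.0 and 84.5 CPM in no-Cre and 83.3, 83.3 and 85.0 CPM in wild-type libraries. All 4 induced libraries were above the other 6, which overlapped. The log2 differences were 0.16 ± 0.05 from no-Cre (adjusted p = 0.0869) and 0.20 ± 0.05 from wild type (adjusted p = 0.00276). With only the 2 groups compared Eed passed against no-Cre (adjusted p = 0.0191), as with DESeq2 (adjusted p = 0.0264).

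Suz12, the scaffold that holds the enzyme and its accessory subunits, followed another order. It stood at 228, 234, 224 and 226 CPM in induced, 238, 243 and 260 CPM in no-Cre and 218, 204 and 217 CPM in wild-type libraries. The 3 groups did not overlap, with no-Cre highest and wild type lowest. The induced and no-Cre libraries differed by -0.12 ± 0.05 on the log2 scale (adjusted p = 0.267), and none of the 9 other settings brought this under the threshold. No-Cre libraries were higher than wild type by 0.21 ± 0.05 (adjusted p = 0.00591). Induced against wild type gave 0.10 ± 0.05 (adjusted p = 0.120), which passed only with GC and length offsets (0.16, adjusted p = 0.0353).

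Jarid2 recruits PRC2 to chromatin in embryonic cells. It was at 118, 137, 133 and 132 CPM in induced, 121, 127 and 125 CPM in no-Cre and 118, 87.2 and 113 CPM in wild-type libraries. The low wild-type value was replicate 2, and the lowest induced library did not exceed the highest wild-type one. The log2 difference between induced and wild type was 0.29 ± 0.09 (adjusted p = 0.0145) and became 0.17 without wild-type replicate 2, still past the threshold. No-Cre against wild type gave 0.23 ± 0.10 (adjusted p = 0.0642), which passed without wild-type replicate 1 (adjusted p = 0.0221) or with DESeq2 (adjusted p = 0.0454). Induced and no-Cre libraries overlapped (0.06 ± 0.09, adjusted p = 0.801).

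Ezh1, the alternative enzyme, was low and showed no called difference. It gave 26.7, 24.3, 24.4 and 24.1 CPM in induced, 23.7, 24.5 and 20.9 CPM in no-Cre and 22.3, 32.9 and 23.0 CPM in wild-type libraries. Wild-type replicate 2 was the highest of all 10. Without it, the 4 induced values lay above the other 2 wild-type values, and the no-Cre values overlapped with both groups. The log2 difference of induced from wild type was -0.07 ± 0.12 (adjusted p = 0.650) and turned to 0.13 without that library. For no-Cre against wild type it was -0.18 ± 0.13 (adjusted p = 0.275) and turned to 0.03 without it.

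**Figure D2:**
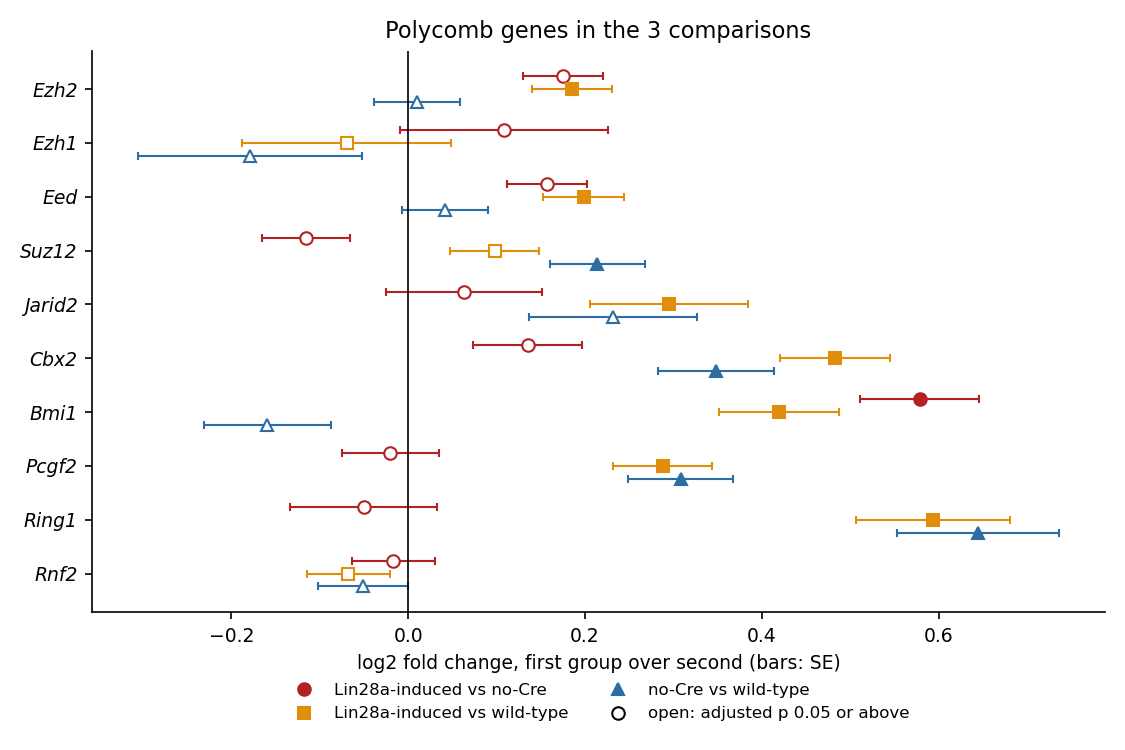
Fitted log2 fold changes (x axis, bars ± SE) of the 10 Polycomb genes in the 3 comparisons, which share libraries: circles for Lin28a-induced over no-Cre, squares for Lin28a-induced over wild-type and triangles for no-Cre over wild-type, with filled symbols where the edgeR adjusted p was under 0.05. Bmi1 at 0.58 is the 1 filled circle, and Ring1 and Cbx2 hold the highest squares at 0.59 and 0.48.

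Within PRC1, the chromobox subunit Cbx2 rose in steps from wild type through no-Cre to induced libraries, with the last step short of the threshold. Cbx2 binds the PRC2 mark and compacts chromatin. Its values were 148, 150, 151 and 152 CPM in induced replicates 2 to 5, 140, 140 and 131 CPM in no-Cre replicates 6 to 8 and 115, 95.9 and 112 CPM in wild-type replicates 1 to 3. No group overlapped with another. Against no-Cre the log2 difference was 0.14 ± 0.06 (adjusted p = 0.292, and 0.0406 with only the 2 groups compared). That was the 1 of 9 other settings in which Cbx2 passed, and it passed in 0 of 7 fits without 1 library. Against wild type it was 0.48 ± 0.06 for induced (adjusted p = 3.14e-05) and 0.35 ± 0.07 for no-Cre libraries (adjusted p = 0.000965).

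The 2 genes with a let-7 seed match thus had induced libraries that lay above all no-Cre libraries, as Bmi1 and Eed without a match also did, and neither passed the test in that comparison. Counting all 10 genes, the groups did not overlap in 5 and overlapped in the other 5. The induced libraries were the higher ones for Ezh2, Eed, Cbx2 and Bmi1 and the lower ones for Suz12. Among all tested genes the groups did not overlap, in either direction, in 23.4%. The median log2 difference of the 10 genes was 0.09, beside -0.00 over all tested genes.

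Ring1 and Rnf2 are the alternative RING-finger enzymes of PRC1. Ring1 gave 24.1, 24.3, 23.3 and 21.2 CPM in induced, 24.6, 25.5 and 22.0 CPM in no-Cre and 16.5, 15.7 and 14.0 CPM in wild-type libraries. Both transgenic groups lay above every wild-type library and overlapped with each other. Ring1 was 1.51-fold higher than wild type in induced libraries (log2 0.59 ± 0.09, adjusted p = 9.05e-05) and 1.56-fold higher in no-Cre libraries (0.64 ± 0.09, adjusted p = 0.000107). The difference between induced and no-Cre was -0.05 ± 0.08 (adjusted p = 0.838).

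Rnf2 passed in no comparison. It was measured at 135, 140, 137 and 142 CPM in induced, 141, 144 and 136 CPM in no-Cre and 148, 146 and 141 CPM in wild-type libraries, and all 3 groups overlapped. The log2 differences were -0.02 ± 0.05 (induced against no-Cre, adjusted p = 0.914), -0.07 ± 0.05 (induced against wild type, adjusted p = 0.252) and -0.05 ± 0.05 (no-Cre against wild type, adjusted p = 0.438).

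Pcgf2, the paralog of Bmi1 in PRC1, gave 65.9, 63.1, 60.6 and 61.4 CPM in induced, 61.6, 66.4 and 63.1 CPM in no-Cre and 54.0, 51.7 and 48.5 CPM in wild-type libraries. The wild-type libraries were the 3 lowest, and the transgenic groups overlapped. Pcgf2 was higher than wild type by 0.29 ± 0.06 in induced (adjusted p = 0.000837) and by 0.31 ± 0.06 in no-Cre libraries (adjusted p = 0.00110). Induced and no-Cre differed by -0.02 ± 0.06 (adjusted p = 0.910).

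Against wild type, 7 of the 10 Polycomb genes were higher in the Lin28a-induced libraries: Ezh2, Eed and Jarid2 of PRC2, and Cbx2, Bmi1, Pcgf2 and Ring1 of PRC1. None was lower, at an unadjusted p under 0.05 either, and DESeq2 also counted 7 higher and 0 lower. Each of the 7 passed in all 7 fits that left out 1 library. In this comparison 49.3% of all tested genes passed, 24.3% higher and 25.0% lower. The induced libraries lay wholly above wild type for 7 genes, with Suz12 in place of Jarid2, beside 49.3% of all tested genes whose groups did not overlap in either direction and 24.7% with induced higher. The genes' median log2 difference was 0.24, beside -0.02 over all genes.

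In the no-Cre libraries 4 of the 10 were higher than wild type (Ring1, Cbx2, Pcgf2 and Suz12) and 0 were lower, with 1 lower at an unadjusted p under 0.05 and 0 lower by DESeq2. Here 42.5% of all tested genes passed, 21.0% higher and 21.4% lower. No-Cre libraries lay wholly above wild type for 5 genes (Suz12, Jarid2, Cbx2, Pcgf2 and Ring1) and below for Bmi1, beside 52.0% of all genes without overlap and 25.8% with no-Cre higher. The surface ectoderm, endothelial and mitochondrial values given above separate wild type from both transgenic groups, and their part in these differences was not tested. Genotype, doxycycline and how the wild-type libraries were made cannot be told apart from each other in the comparisons with wild type.

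**Figure D3:**
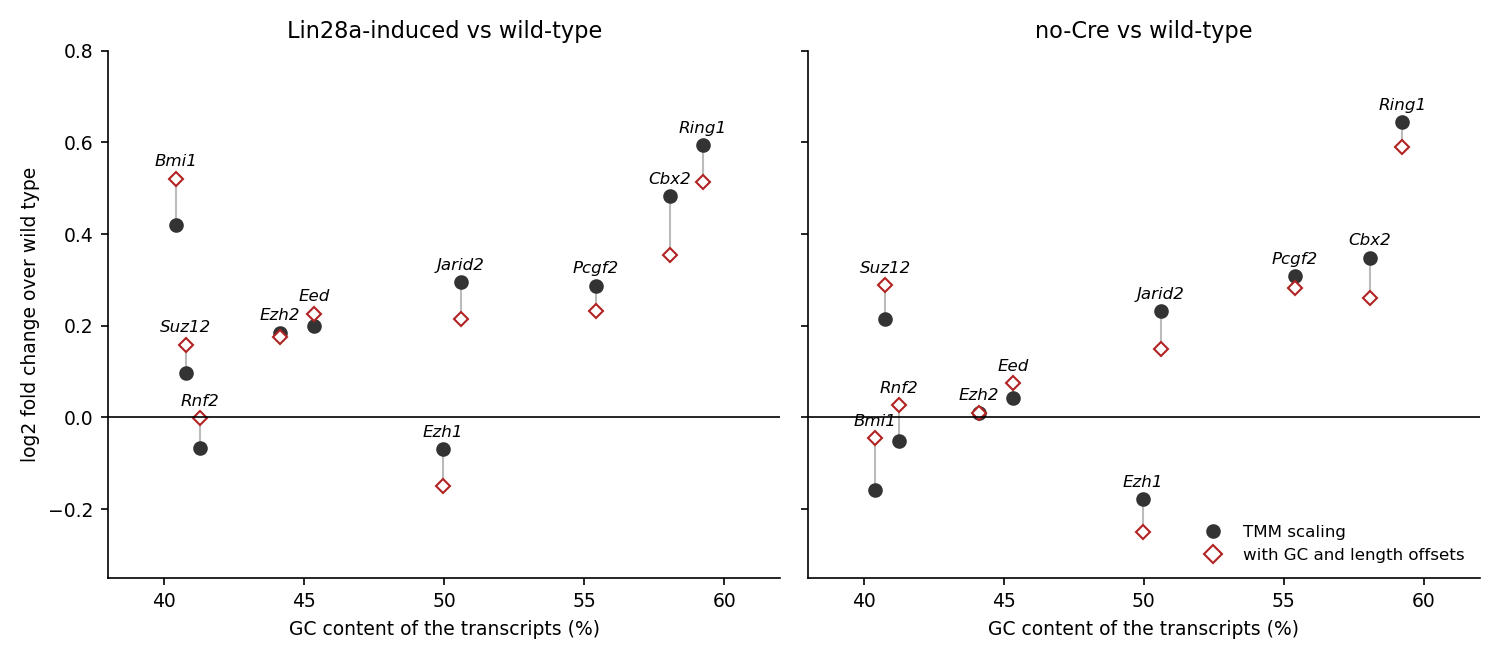
Log2 fold change over wild type (y axes) of the 10 Polycomb genes in Lin28a-induced (left) and no-Cre (right) libraries. The x axes give GC content (%), taken over all annotated transcripts of each gene. Black circles are fits with TMM scaling and open diamonds are fits with added GC and length offsets. With the offsets Cbx2 moves from 0.48 to 0.36 and Bmi1 from 0.42 to 0.52 in the induced libraries, and no gene called with TMM scaling loses its call.

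Base composition moved with the comparisons to wild type. Over all genes the median log2 difference between induced and wild type ran from -0.10 in the lowest of 4 equal bins of GC content to 0.06 in the highest, and from -0.09 to 0.05 for no-Cre. With GC and length offsets these medians still ran from -0.016 to 0.044 for induced and from -0.020 to 0.042 for no-Cre. The offsets thus reduced the trend without removing it. The Polycomb genes span this range, from 40.4% for Bmi1, 40.8% for Suz12 and 41.3% for Rnf2 to 55.4% for Pcgf2, 58.1% for Cbx2 and 59.2% for Ring1. With offsets for GC content and length, Ring1 remained higher than wild type by 0.51 in induced and 0.59 in no-Cre libraries, and Cbx2 by 0.36 and 0.26. Bmi1 went from 0.42 to 0.52 in induced and from -0.16 to -0.05 in no-Cre libraries. Rnf2 turned from -0.05 to 0.03 in no-Cre libraries, not called in either fit. Between induced and no-Cre, Bmi1 stayed between 0.57 and 0.58 in all 9 other settings.

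Levels of different genes were compared per kb of exonic length, the union of all annotated exons. That union can be longer than the transcripts that were expressed, and the order of the genes depends on it. Over all 10 libraries Suz12 (46.3 ± 3.16 CPM per kb, SD, n = 10) and Ezh2 (46.2 ± 3.15) were the most abundant, followed by Rnf2 (34.2 ± 1.05), Cbx2 (31.3 ± 4.61), Eed (23.4 ± 1.60), Bmi1 (19.0 ± 3.75), Pcgf2 (16.9 ± 1.73) and Jarid2 (12.5 ± 1.46). Ring1 (6.51 ± 1.29) and Ezh1 (3.32 ± 0.438) were the lowest. By group, Ezh2 was above Suz12 in induced libraries (49.7 ± 0.486 against 46.1 ± 0.904 CPM per kb, ranges apart) and below it in no-Cre libraries (44.1 ± 1.18 against 49.9 ± 2.26, ranges apart). In wild type they overlapped (43.7 ± 1.45 and 43.1 ± 1.66). In CPM without length scaling, Ezh2 was above Suz12 in every group. The means were 332 against 228 CPM in induced, 294 against 247 in no-Cre and 292 against 213 in wild-type libraries. The switch in order thus rests on the lengths used, 6678 bases for Ezh2 and 4945 bases for Suz12. Over the 10 libraries only the step from Ezh2 to Rnf2 and the step from Jarid2 to Ring1 separated neighbouring ranges over the libraries. All other neighbours overlapped when the groups were pooled.

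Paralogs that occupy the same place in a complex were set against each other within each library, as ratios of CPM per kb. These pairs were compared after the values had been seen. The size of a ratio depends on the union lengths used, and its fold change between groups does not. Ezh2 exceeded Ezh1 by 14.9 ± 0.797 in induced (SD, n = 4), 14.3 ± 1.33 in no-Cre (SD, n = 3) and 12.9 ± 2.92 in wild-type libraries (SD, n = 3), where replicate 2 gave 9.60. These groups overlapped.

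The ratio of Rnf2 to Ring1 was 4.39, 4.54, 4.64 and 5.25 in induced replicates 2 to 5, 4.51, 4.44 and 4.83 in no-Cre replicates 6 to 8 and 7.07, 7.32 and 7.95 in wild-type replicates 1 to 3. Every wild-type library was above every transgenic one. The ratios carry no GC offsets, and Rnf2 (41.3%) and Ring1 (59.2%) differ in GC content, whose part in this ratio was not tested. By an exact two-sided permutation test the p was 0.0571 for induced against wild type and 0.100 for no-Cre against wild type, in each case the smallest that these group sizes allow, and 0.225 for both after adjustment over 9 tests.

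The ratio of Bmi1 to Pcgf2 was 1.13, 1.28, 1.32 and 1.46 in induced, 0.882, 0.825 and 0.860 in no-Cre and 1.06, 1.29 and 1.20 in wild-type libraries. The ratio was above 1 in every induced and wild-type library and below 1 in every no-Cre library. Which paralog is the more abundant cannot be read from this, since 27.3% of the words in Bmi1 transcripts are shared with other genes and the sources used here do not say how reads that map to several genes were counted. The induced and no-Cre libraries did not overlap (exact two-sided permutation p = 0.0571, the smallest possible, adjusted p = 0.225), while induced and wild type did. Bmi1 (40.4%) and Pcgf2 (55.4%) also differ in GC content, and its part in the ratios against wild type was not tested.

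**Figure D4:**
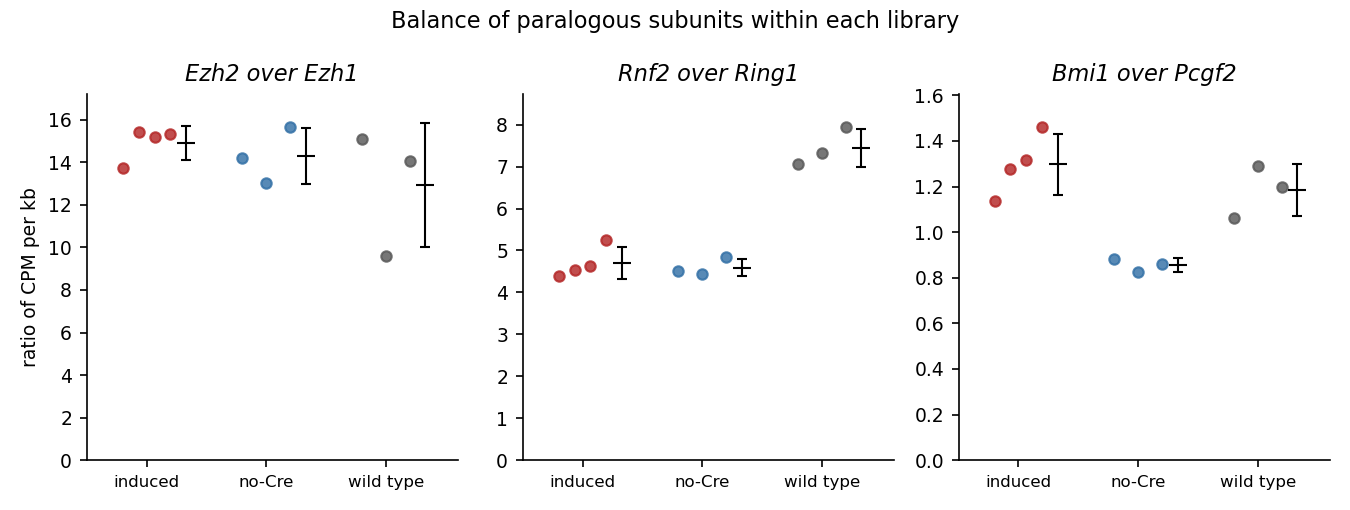
Ratio of CPM per kb (y axes, from 0) for 3 pairs of paralogous Polycomb genes in each library, with points for libraries and black dashes and bars for the group mean ± SD. Rnf2 over Ring1 lies at 7.07 to 7.95 in wild type and 4.39 to 5.25 in the other groups, and Bmi1 over Pcgf2 lies below 1 only in the no-Cre libraries (0.825 to 0.882).

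The wider Polycomb machinery was followed in fixed lists, whose members were called by the same test. Of the 8 other PRC2 subunits, 2 were higher in induced than in no-Cre libraries and 0 lower (1 lower at an unadjusted p under 0.05, 0 by DESeq2). Among all tested genes 1.76% were higher and 1.15% lower in this comparison. With only the 2 groups compared, 3 of the 8 were called higher, beside 912 of 15983 tested genes. Mtf2, a Polycomb-like subunit that brings PRC2 to CpG islands, was at 197 ± 2.33 CPM (SD, n = 4) against 140 ± 5.27 CPM (SD, n = 3), a log2 difference of 0.49 ± 0.07 (adjusted p = 0.00157, 7 of 7 fits without 1 library). Lcor, whose locus also encodes a PRC2 accessory protein, was at 50.4 ± 3.61 against 35.4 ± 0.688 CPM, a log2 difference of 0.51 ± 0.09 (adjusted p = 0.00763). Lcor missed the threshold without no-Cre replicate 7 (adjusted p = 0.0592) or replicate 8 (adjusted p = 0.0533).

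Relative to wild type, 5 of these 8 were higher and 1 lower in induced libraries, and 2 were higher and 1 lower in no-Cre libraries. Among all tested genes 49.3% (induced) and 42.5% (no-Cre) passed in either direction. Aebp2, a cofactor of Suz12, stood at 158 ± 7.32 CPM in induced (SD, n = 4), 155 ± 8.16 in no-Cre (SD, n = 3) and 123 ± 1.36 in wild-type libraries (SD, n = 3), higher by 0.36 and 0.34 on the log2 scale (adjusted p = 0.000117 and 0.000482). Mtf2 was higher than wild type in induced libraries (0.27, adjusted p = 0.00391) and lower in no-Cre libraries (-0.22, adjusted p = 0.0231). That last call was lost in 4 of the 6 fits that left out 1 library and with only the 2 groups compared (adjusted p = 0.0671). Epop, found under its older symbol E130012A19Rik, and Lcor were higher in the induced libraries (0.33, adjusted p = 0.0153, and 0.42, adjusted p = 0.00140). Rbbp4, a histone-binding subunit, was higher in no-Cre libraries (0.14, adjusted p = 0.0244) and lost that call without no-Cre replicate 6 (adjusted p = 0.0677) or 7 (adjusted p = 0.0889). The call was also lost with only the 2 groups compared (adjusted p = 0.0796) and with sex as a covariate (adjusted p = 0.0677).

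Of the 19 other PRC1 subunits, Rybp alone passed the test between induced and no-Cre libraries, at 40.7 ± 2.52 against 34.0 ± 1.36 CPM (log2 0.26 ± 0.06, adjusted p = 0.0481). Over all tested genes 2.91% passed there. At an unadjusted p under 0.05, 5 of the 19 were higher and 1 was lower, beside 16.3% of all tested genes. The number called higher was 2 with DESeq2, 2 with GC and length offsets and 4 with only the 2 groups compared. Of all tested genes 506, 364 and 912 were called higher under these settings. Rybp, which defines the variant PRC1 complexes, missed the threshold in each of the 7 fits that left out 1 library (adjusted p from 0.0552 to 0.202). Against wild type 11 were higher and 4 lower in induced, and 9 higher and 5 lower in no-Cre libraries. The shares of all tested genes that passed there were 49.3% and 42.5%. Bcor, part of a variant PRC1, was at 188 ± 16.4, 186 ± 8.89 and 124 ± 15.8 CPM in induced, no-Cre and wild-type libraries (log2 0.60 and 0.58 over wild type, adjusted p = 9.69e-05 and 0.000275). Auts2, which turns variant PRC1 towards activation, was higher by 0.68 and 0.61 (adjusted p = 0.000145 and 0.000698). Yaf2, the paralog of Rybp, was higher by 0.39 in both (adjusted p = 0.000774 and 0.00158). Pcgf3 was higher by 0.36 in induced libraries (adjusted p = 0.000151) and by 0.17 in no-Cre libraries (adjusted p = 0.0354).

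Cbx8, a chromobox paralog of Cbx2, was lower than wild type in both transgenic groups. It stood at 9.35 ± 1.15 CPM in induced, 10.3 ± 0.543 in no-Cre and 16.0 ± 2.45 in wild-type libraries, with log2 differences of -0.77 in induced (adjusted p = 0.000162) and -0.63 in no-Cre libraries (adjusted p = 0.00178). Cbx2 was higher than wild type in both groups, as given above.

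The opposing machinery held no gene that passed the test between induced and no-Cre libraries. None of 7 genes that erase the Polycomb marks and none of 11 Trithorax subunits passed there by edgeR or DESeq2, with 1 eraser and 2 Trithorax genes at an unadjusted p under 0.05. These counts are near the shares of all tested genes in this comparison, 2.91% called and 16.3% at an unadjusted p under 0.05 (edgeR). Compared with wild type, 3 erasers were higher and 1 lower in induced libraries. In no-Cre libraries 4 were higher and 0 lower (also 0 lower at an unadjusted p under 0.05 and by DESeq2). Of all tested genes 49.3% (induced) and 42.5% (no-Cre) passed in these comparisons. The demethylase Kdm6b was higher by 0.52 and 0.56 (adjusted p = 0.000191 and 0.000247), and Asxl1, a partner of the deubiquitinase Bap1, by 0.40 and 0.39 (adjusted p = 0.000156 and 0.000438). Bap1 itself was higher by 0.22 and 0.20 (adjusted p = 0.00586 and 0.0166), with the no-Cre call lost without no-Cre replicate 8 (adjusted p = 0.0520). Asxl2 was lower in induced libraries (-0.28, adjusted p = 0.00423), and Asxl3 was higher in no-Cre libraries (0.30, adjusted p = 0.0201, and 0.0870 without replicate 8).

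Of the 11 Trithorax subunits 4 were higher and 1 lower than wild type in each transgenic group, a share near the 49.3% (induced) and 42.5% (no-Cre) of all tested genes that passed. The methyltransferases Setd1a, Setd1b and Kmt2b were higher by 0.49, 0.45 and 0.39 in induced libraries (adjusted p = 5.24e-05, 0.000173 and 0.000105). In no-Cre libraries they were higher by 0.35, 0.49 and 0.35 (adjusted p = 0.00175, 0.000193 and 0.000547). The shared core subunit Dpy30 was the lower one, at 62.4 ± 3.67, 64.1 ± 2.90 and 84.3 ± 3.60 CPM in induced, no-Cre and wild-type libraries (log2 -0.44 and -0.39, adjusted p = 4.03e-05 and 0.000239).

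The Hox genes, the best known targets of these complexes in the body axis, were counted for 38 genes. Between induced and no-Cre libraries 3 were higher, Hoxd10 and Hoxd11 among them, and 0 lower (1 lower at an unadjusted p under 0.05, 0 by DESeq2). Hoxd11 was named after its value was seen. The count of higher Hox genes was 9 with DESeq2 and 15 with only the 2 groups compared. Over all 16340 tested genes the number called higher was 288, and 506 with DESeq2. It was 912 of 15983 with only the 2 groups compared. In the joint edgeR fit 33 of the 38 Hox genes had a positive log2 difference, with a median of 0.19 beside -0.00 over all tested genes. Hoxd10 was at 83.0 ± 6.95 CPM in induced, 65.5 ± 1.84 in no-Cre and 97.2 ± 4.01 in wild-type libraries. Its log2 difference from no-Cre was 0.34 ± 0.06 (adjusted p = 0.0125), and it missed the threshold without any 1 of the no-Cre libraries (adjusted p = 0.0705 to 0.0887). Hoxd11 differed by 0.24 (adjusted p = 0.0466).

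Against wild type 12 Hox genes were higher and 6 lower in induced libraries, and 6 higher and 12 lower in no-Cre libraries. These 18 of 38 are a share near the 49.3% and 42.5% of all tested genes that passed. Hoxd1 was at 14.4 ± 2.13, 19.2 ± 3.35 and 5.97 ± 0.831 CPM in induced, no-Cre and wild-type libraries (log2 1.27 and 1.69 over wild type, adjusted p = 1.88e-05 and 3.40e-06). Hoxa10 was lower in no-Cre libraries (-0.52, adjusted p = 1.56e-05). The share of higher and lower Hox genes thus differed between the transgenic groups by count, and that difference was not tested.

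Of 16 textbook Polycomb targets outside the Hox clusters, 8 were expressed enough to test. None passed between induced and no-Cre libraries in the joint edgeR fit or by DESeq2, and none did at an unadjusted p under 0.05 in either. The edgeR fit of only these 2 groups counted 1 of 7 as lower. With wild type as the reference, 2 were higher and 4 lower in induced and 2 higher and 3 lower in no-Cre libraries. Beside these, 49.3% and 42.5% of all tested genes passed. Cdkn2a, the locus that Bmi1 is known to repress, was at 0.900 to 1.14 CPM in induced, 0.996 ± 0.289 CPM in no-Cre (SD, n = 3) and 1.81 ± 1.16 CPM in wild-type libraries (SD, n = 3), and its log2 difference between induced and no-Cre was 0.02 ± 0.37 (adjusted p = 0.990). Cdkn2b, its neighbour, was at 1.43 ± 0.248, 1.79 ± 0.463 and 4.59 ± 1.05 CPM (log2 -1.68 and -1.35 against wild type, adjusted p = 6.25e-05 and 0.000810). Sox17, an endodermal and endothelial factor, was higher than wild type by 1.69 and 1.59 (adjusted p = 0.00117 and 0.00326), beside the endothelial markers that were all higher in the same libraries.

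Since Ezh2, Eed and Suz12 are known to rise with cell division, 20 cell cycle genes were read beside them. They summed to 5893 to 6143 CPM in induced, 6172 to 6336 CPM in no-Cre and 5849 to 6088 CPM in wild-type libraries. The induced sums lay below the no-Cre sums and overlapped with wild type. None of the 20 genes passed between induced and no-Cre in the joint edgeR fit (1 higher and 1 lower at an unadjusted p under 0.05, 1 lower by DESeq2). Over all tested genes 2.91% passed in that fit. With only the 2 groups compared, 1 cell cycle gene was called lower and 0 higher, beside 1791 of 15983 tested genes called in either direction. Compared with wild type, 6 were higher and 3 lower in induced, and 5 higher and 3 lower in no-Cre libraries. These counts are near the 49.3% (induced) and 42.5% (no-Cre) of all tested genes that passed. Surface ectoderm, endothelial, macrophage, neuronal, red blood cell and tail bud markers also had 0 called genes between induced and no-Cre libraries in the joint edgeR fit, with 1 endothelial marker at an unadjusted p under 0.05. DESeq2 and limma-voom each counted 1 endothelial marker as higher. The edgeR fit of only these 2 groups counted 2 tail bud, 2 macrophage and 1 endothelial marker as higher, and the part of these cells in the differences was not tested.

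Other cell types differed from wild type as follows, where 49.3% (induced) and 42.5% (no-Cre) of all tested genes passed. Of 10 macrophage markers 7 were higher in induced libraries and 5 in no-Cre libraries, where 1 was lower. Their sum was 114 to 141 CPM, 98.5 to 124 CPM and 42.5 to 88.7 CPM in induced, no-Cre and wild-type libraries. Of 8 tested neuronal markers 1 was higher and 3 lower in each transgenic group, with sums over 9 markers of 30.1 to 33.4, 27.1 to 34.5 and 60.6 to 77.4 CPM and with Isl1 at 0 in wild type. Red blood cell markers summed to 3751 to 6146, 5657 to 9562 and 2761 to 8097 CPM, with 4 of 10 higher and 1 lower in each transgenic group. The tail bud list had 3 of 10 higher in each. The part of these shifts in the Polycomb values was not tested.

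The genes whose pattern over the 10 libraries was most like Cbx2 were Rcor2 (Pearson r of log2 CPM 0.993), Sall4 (0.993), Ubqln4 (0.993), Elovl6 (0.991) and Bend3 (0.990), out of 9456 genes with a mean of at least 10 CPM. For Ezh2 they were Dusp22 (0.979), Tsr2 (0.973), Aen (0.971), Nufip1 (0.969) and Pafah1b2 (0.968). Among the Polycomb genes themselves the closest pair was Pcgf2 with Ring1 (0.967), then Jarid2 with Cbx2 (0.878), and the most opposed was Ezh1 with Jarid2 (-0.708). These values describe 10 libraries that share group, depth and base composition differences, and carry no test.

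The remaining genes lie at these places in GRCm38. Ezh2 spans 47530139 to 47595341 on chromosome 6, Eed 89954654 to 89980983 on chromosome 7, Jarid2 44729474 to 44921643 on chromosome 13, Ring1 34020792 to 34024680 on chromosome 17 and Rnf2 151458004 to 151500955 on chromosome 1. Chromosome 11 holds Suz12 (79993106 to 80034123), Pcgf2 (97688823 to 97700497), Ezh1 (101191115 to 101226463) and Cbx2 (119022962 to 119031270). Exons of Ezh2, Eed, Suz12 and Rnf2 overlap a gene on the other strand (Gm26625, E230029C05Rik, Gm26563 and Trmt1l) over 174, 261, 178 and 158 bases, and the strand setting of the counting is not given in the sources used here. Besides Bmi1, Pcgf2 shared 2.16% and Eed 1.62% of their 32-base words with other genes, and every other subunit gene shared under 1%.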

How the data were processed

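The deposited table gives raw counts of reads for each gene symbol in each library, not normalized. Per the labels' protocols, libraries were made with the NEB Ultra Directional kit and sequenced as single reads on an Illumina NextSeq. Per the submitters' processing notes, STAR 2.3.1z4, featureCounts, DESeq2 and mm10 were used. The annotation, strand and multiple-alignment settings were not given in the sources used, and shared or opposite-strand sequence could therefore move a count. Symbols were matched to GENCODE M21 (35654 directly, 1759 by an older symbol, 1307 not).

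Counts were filtered with filterByExpr, scaled by TMM factors and tested with edgeR 4.0.16 (glmQLFit, robust, then glmQLFTest) in a joint fit of all 10 libraries with a coefficient for each of 3 groups. Adjustment ran over all 16340 tested genes. The SE of a log2 fold change is its size over the root of the F statistic. CPM per kb uses the union of exons. Likeness used log2 CPM with a pseudocount of 0.5. Ratios of paralogs were tested with scipy 1.17.1. The scripts were tested on simulated data.

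The genes and lists were chosen with earlier results of these data known. All 10 subunit genes are named, with up to 4 genes of each subunit, eraser and Trithorax list and up to 2 of each target list per comparison, by smallest adjusted p under 0.05, and the 5 genes most like Ezh2 and Cbx2. Others were named after their values were seen: Hoxd11, Cdkn2a, Commd3, Gm5946 and values of named genes in comparisons where the rule did not pick them. Hoxd4 was not used here, and 2 genes that the rule picks are not reported here.

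Alternatives were DESeq2 1.42.0, its size factors in edgeR, limma-voom (limma 3.58.1), no low-count filter, a minimum of 1 CPM in 3 libraries, a fit of only the 2 groups in question, sex as a covariate (from Xist and Ddx3y), no globin and mitochondrial genes, GC and length offsets, a replicate block, and leaving out each library. Software was R 4.3.3 and Python 3.11.15 with pandas 2.3.3, numpy 2.4.6 and, for figures, matplotlib 3.10.9.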

Additional observations from a re-analysis of the deposited data

Results flagged for a closer look

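Ezh1 in Lin28a-induced replicate 2 stood at 26.7 CPM, apart from 24.1 to 24.4 CPM in the other 3 induced libraries. Its gap to the nearest of them was 0.877 of the group's range, past the 95% critical value for a group of 4. This was 1 of 11 genes examined in that group (the 10 Polycomb genes and Lin28a), and chance passes that value in about 1 of 20 groups. Groups of 3 were not examined.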

How the results depend on the processing

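Of 280 values of the 10 genes under settings other than leaving out a library, 268 kept direction and side of the threshold, 0 lost a call, 10 gained one and 2 changed sign. The sign changes were both in no-Cre against wild type, Ezh2 at -0.0036 with the filter of 1 CPM and Rnf2 at 0.027 with GC and length offsets, and neither was called in any fit. Between induced and no-Cre libraries the number of the 10 genes called was 1, and it was 3 with DESeq2, 2 with limma-voom, 2 with the filter of 1 CPM, 2 with GC and length offsets and 4 with only the 2 groups compared. All genes called there numbered 476, and 993 with DESeq2, 1791 with only the 2 groups compared and 303 with sex as a covariate. The cause was not tested.

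Leaving out each library in turn gave 1 called of the 10 genes in every fit and 104 to 304 genes in all between induced and no-Cre, with fewer libraries in each fit. Of 200 such values 193 were the same, 1 gained a call and 6 changed sign, all of values that were not called. Ranges with a sign change were -0.17 to 0.13 for Ezh1 (induced against wild type), -0.28 to 0.025 for Ezh1 and -0.010 to 0.040 for Ezh2 (no-Cre against wild type), -0.046 to 0.0096 for Pcgf2 and -0.040 to 0.0027 for Rnf2 (induced against no-Cre). The log2 ratio of Ezh2 to Ezh1 ranged from -0.0031 to 0.13 (induced against no-Cre) and -0.031 to 0.30 (no-Cre against wild type), and that of Rnf2 to Ring1 from -0.022 to 0.069 (induced against no-Cre). The ratios were added after the data were seen.

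Induced and wild-type libraries share the replicate numbers 2 and 3 only. With these as a replicate block, 7 of the 10 genes and 8028 genes in all were called, beside 7 and 8050 without it. Deviations from the group mean correlated at -0.02 for number 2 and -0.10 for number 3, so the numbers were not taken to pair libraries. Depth allows 304 to 13047 counts per gene and library.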
